A study of Homo sapiens with 12 samples.

Results

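CAMA-1 is an established oestrogen receptor-positive human breast cancer line, and 31 genes of sterol and fatty acid synthesis were followed in it through treatment with a cell cycle inhibitor, an anti-oestrogen or both. The members are the rows of the count table that carry one of 31 listed gene symbols, out of 60612 named rows. They comprise 18 sterol enzymes, 5 regulators and 8 fatty acid enzymes. The table held 12 libraries of wild-type cells, with 3 replicates in each of 4 groups. These groups were the DMSO vehicle, abemaciclib (a CDK4/6 inhibitor) at 100 nM, fulvestrant (a selective oestrogen receptor degrader) at 5 nM, and the combination of both drugs, for which the labels give no separate doses. All cells came from 1 line grown in medium with fetal bovine serum, which supplies lipoprotein cholesterol and fatty acids, so the levels describe cells that could also take up lipid.

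Cells build cholesterol from acetyl-CoA through mevalonate and farnesyl diphosphate, and then through squalene, lanosterol and a series of sterol intermediates. Fatty acids are built from the same acetyl-CoA by carboxylation and chain extension, followed by desaturation and elongation. Both routes are controlled by sterol regulatory element-binding proteins (SREBPs), which the escort protein SCAP carries out of the endoplasmic reticulum when sterols are low and which the INSIG proteins hold back when sterols are high. SREBP-2, from SREBF2, is known mainly for sterol genes, and SREBP-1, from SREBF1, mainly for fatty acid genes.

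Each library held between 3299119 and 5164667 counted reads. Values are normalised read counts (CPM, reads scaled to library size by TMM), and differences are log2 fold changes ± SE from 1 edgeR quasi-likelihood fit over 11803 genes in all 12 libraries. A change was called at a Benjamini-Hochberg adjusted p under 0.05. Every library correlated best with the libraries of its own group. The 8 luminal epithelial markers were all tested and summed to between 5625 and 7722 CPM, whereas the leukocyte and endothelial markers never exceeded 3 reads in a library. Of 5 fibroblast markers 3 were at 0 in every library and the sum ran from 17.8 to 36.9 CPM, lowest in DMSO. The proliferation markers MKI67 and CCNA2 summed to between 557 and 664 CPM with DMSO and between 59.4 and 68.2 with abemaciclib. Their sum was between 46.8 and 53.1 CPM with fulvestrant and between 1.94 and 2.65 with the combination. TFF1 and GREB1, targets of the oestrogen receptor, summed to between 137 and 148 CPM with DMSO and between 489 and 524 with abemaciclib. Their sum was between 5.92 and 6.18 CPM with fulvestrant and between 8.90 and 11.8 with the combination. The share of reads from mitochondrial transcripts was between 12.0 and 12.5% with DMSO and between 15.6 and 20.6% with drug, and leaving those transcripts out of the scaling moved no count of called members by more than 1.5 times.

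Of the 31 genes, 28 had enough reads to test. CYP51A1, the lanosterol demethylase, had 0 reads in all 12 libraries, a count that allows at most 3 reads in each of them (counting error only). Nearly the whole 3′ end of its canonical transcript, 98.8% of the last 500 bases, is shared with same-strand readthrough gene models in GENCODE v44. Whether the annotation used for counting held those models was not checked. The 0 does not show absence of the transcript. STARD4, a sterol carrier, had 13 reads in total and ELOVL6, a fatty acid elongase, had 7, and neither reached more than 2 reads in a library. These 3 genes enter none of the counts.

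Within each branch some enzymes fell and others rose in the same cells, and the calls over all tested genes were likewise divided between the directions. ACAT2, EBP, FADS1, INSIG1, FDPS and FADS2 fell under each of the 3 treatments, and FASN, TM7SF2, SC5D, MSMO1 and SREBF2 rose under each. With abemaciclib 16 of the 28 tested genes were called (10 higher and 6 lower), against 41.2% of all tested genes (20.5% higher and 20.7% lower), and the count was 10 without abemaciclib replicate 3. With fulvestrant 17 were called (7 higher and 10 lower), against 51.0% (25.3% higher and 25.7% lower). With the combination 22 were called (10 higher and 12 lower), against 55.2% (27.7% higher and 27.5% lower). Because so many genes changed in these cells, the share called among the lipid genes is to be read against that background, and no test compared the shares. In bulk libraries less of a transcript per cell and fewer cells that hold it cannot be told apart.

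**Figure D1:**
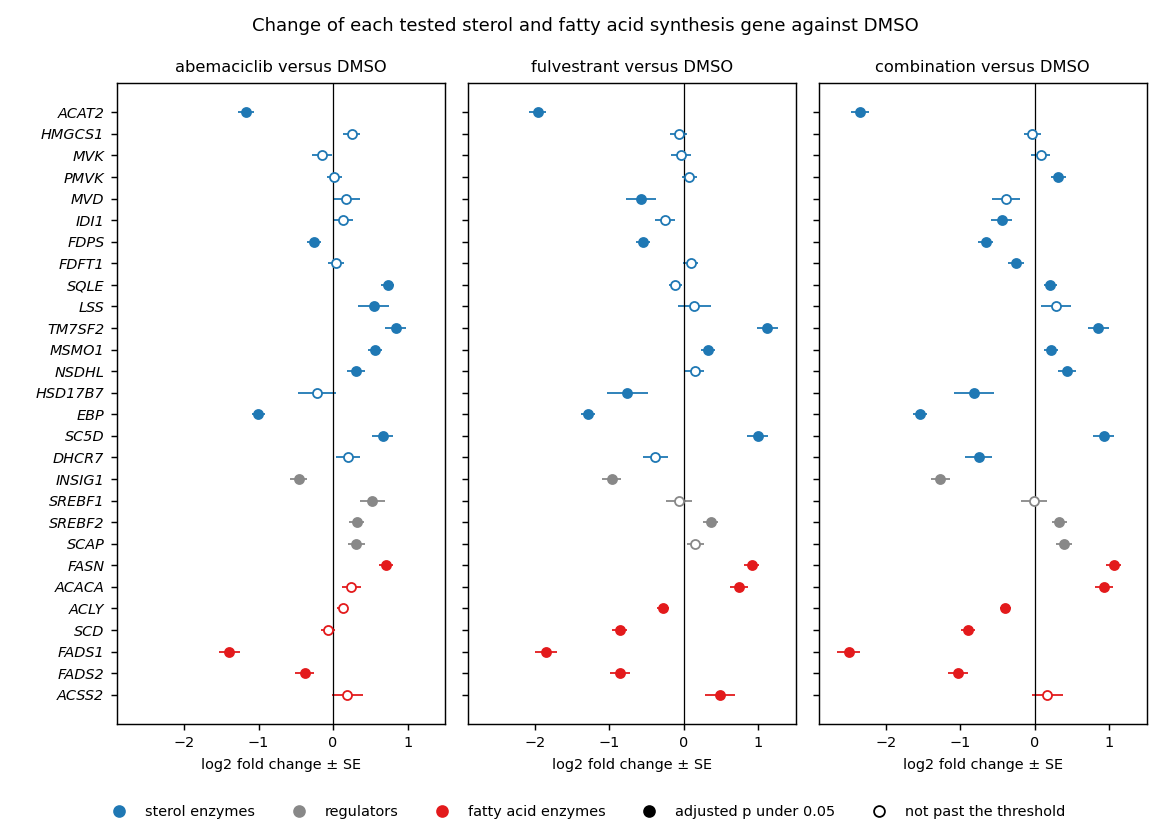
Log2 fold change against DMSO (horizontal axis, ± SE) of each of the 28 tested genes under abemaciclib, fulvestrant and the combination, with 3 libraries per group. Filled points have an adjusted p under 0.05, open points do not, and colours mark the branch. ACAT2, EBP and FADS1 lie far to the left in all 3 panels, while FASN, TM7SF2 and SC5D lie to the right.

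Within the first segment of the sterol route, from acetyl-CoA to farnesyl diphosphate, no enzyme was called higher with either single drug. Of its 7 enzymes, 2 fell with abemaciclib and 3 with fulvestrant. The combination lowered 3 and raised 1. The shares called were 28.6%, 42.9% and 57.1%, beside 41.2%, 51.0% and 55.2% of all tested genes. The median log2 fold change of the 7 was 0.01 with abemaciclib, -0.26 with fulvestrant and -0.39 with the combination. ACAT2 (chr6:159762045-159779112, plus strand), the cytosolic thiolase that joins a pair of acetyl-CoA molecules, had the largest fall of the segment. It gave 85.8, 83.4 and 84.3 CPM with DMSO, 40.2, 36.0 and 35.9 with abemaciclib, 22.2, 24.3 and 18.7 with fulvestrant, and 16.8, 15.7 and 17.3 with the combination. No library of one group overlapped those of another. The log2 fold change was -1.17 ± 0.11 with abemaciclib (adjusted p = 1.31e-09), -1.96 ± 0.12 with fulvestrant (adjusted p = 9.76e-14) and -2.34 ± 0.12 with the combination (adjusted p = 1.89e-15).

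The end of ACAT2 lies over another gene. On GRCh38, exons of TCP1, a chaperonin subunit gene on the opposite strand, cover 90.8% of the last 500 bases of the canonical ACAT2 transcript. TCP1, looked up because of this overlap after the ACAT2 values were seen, averaged 214 CPM with DMSO, 137 with abemaciclib, 116 with fulvestrant and 93.0 with the combination, and its fall was called in all 3. Whether the reads were counted by strand is not given in the sources used here, nor is what was done with reads over exons of both genes. How reads over the shared bases enter the ACAT2 values is therefore not known. The same overlap on the opposite strand covers 73.8% of the last 500 bases of HMGCS1, 76.6% of FDPS, 89.6% of LSS and 24% of SREBF1. For FDPS the partner, RUSC1-AS1, had 27 reads over all libraries against 6596 for FDPS. For SREBF1 the partner, RAI1, had 1446 reads against 2470 for SREBF1. RAI1 was called higher with fulvestrant (0.51 ± 0.17, adjusted p = 0.0133) and with the combination (0.46 ± 0.17, adjusted p = 0.0204), but not with abemaciclib. Its part in the SREBF1 values was not tested, and the partners at HMGCS1 and LSS were not looked up.

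HMGCS1, the synthase that makes HMG-CoA and a standard readout of SREBP-2 activity, did not pass the threshold against DMSO in any treatment. It gave 51.3, 56.1 and 66.1 CPM with DMSO, 67.6, 73.1 and 66.5 with abemaciclib, 63.5, 55.0 and 47.4 with fulvestrant, and 52.2, 54.6 and 63.3 with the combination. All 3 abemaciclib libraries were above the highest DMSO library, by a small margin, and the other groups overlapped DMSO. The difference was 0.25 ± 0.12 with abemaciclib (adjusted p = 0.0866, 95% interval 0.01 to 0.49 before adjustment) and -0.07 ± 0.12 with fulvestrant (adjusted p = 0.633, interval -0.32 to 0.17).

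Farnesyl diphosphate synthase, FDPS, makes the last product shared by sterols and the other isoprenoids. It averaged 158 ± 13.6 CPM with DMSO, 132 ± 16.2 with abemaciclib, 107 ± 10.7 with fulvestrant and 99.5 ± 3.11 with the combination (SD, n = 3). All 3 falls were called, that with abemaciclib at an adjusted p of 0.0325. MVD, the mevalonate diphosphate decarboxylase, fell with fulvestrant (-0.58 ± 0.20, adjusted p = 0.0167). IDI1, the isopentenyl diphosphate isomerase, fell with the combination (-0.45 ± 0.14, adjusted p = 0.00662). PMVK, phosphomevalonate kinase, rose with the combination (0.32 ± 0.10, adjusted p = 0.00769). MVK, mevalonate kinase, was called in none of the comparisons, with group means between 35.8 and 41.6 CPM.

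The second segment runs from squalene to cholesterol. Of its 10 tested enzymes 6 rose and 1 fell with abemaciclib, 3 rose and 2 fell with fulvestrant, and 5 rose and 4 fell with the combination. The shares called were 70%, 50% and 90%, so that the share with fulvestrant was close to the 51.0% of all tested genes. The median log2 fold change was 0.42 with abemaciclib, 0.11 with fulvestrant and 0.21 with the combination, where the median over all tested genes was at most 0.01. EBP, the sterol isomerase that shifts the double bond of the B ring, fell in each treatment. It gave 169, 184 and 188 CPM with DMSO, 99.6, 83.9 and 86.2 with abemaciclib, 76.8, 77.0 and 68.4 with fulvestrant, and 66.6, 61.4 and 59.0 with the combination. Each of the treated groups lay wholly below DMSO. Its log2 fold change was -1.0 ± 0.09 with abemaciclib, -1.29 ± 0.09 with fulvestrant and -1.54 ± 0.09 with the combination, with adjusted p of 6.32e-10, 3.22e-12 and 6.14e-14.

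TM7SF2, a sterol reductase acting on the C14 double bond, moved the other way. It gave 15.4, 15.8 and 15.7 CPM with DMSO, 29.4, 29.6 and 24.8 with abemaciclib, 31.6, 35.8 and 34.9 with fulvestrant, and 25.0, 29.8 and 29.9 with the combination. The treated libraries did not overlap DMSO, but the combination overlapped abemaciclib. The rise was 0.84 ± 0.14 with abemaciclib (adjusted p = 2.81e-05), 1.12 ± 0.14 with fulvestrant (adjusted p = 1.63e-07) and 0.85 ± 0.14 with the combination (adjusted p = 1.02e-05). SC5D, the lathosterol desaturase that follows EBP in the route, averaged 21.4 ± 2.88 CPM with DMSO, 34.5 ± 2.66 with abemaciclib, 43.0 ± 4.85 with fulvestrant and 41.0 ± 4.51 with the combination (SD, n = 3). All 3 rises were called, at adjusted p of 0.00034, 8.3e-07 and 1.78e-06. Adjoining steps of the late route, isomerase and desaturase, moved in opposite directions at the level of the transcript.

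The proximal promoters of these 3 genes are shown because the genes changed most, or in opposite directions, within 1 segment of the route. They were chosen after the values were seen. Each runs from 250 bases before to 50 bases after the RefSeq start on GRCh38.p14, 5′ to 3′ on the plus strand, and capitals mark the NF-Y box, CCAAT on either strand.

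EBP: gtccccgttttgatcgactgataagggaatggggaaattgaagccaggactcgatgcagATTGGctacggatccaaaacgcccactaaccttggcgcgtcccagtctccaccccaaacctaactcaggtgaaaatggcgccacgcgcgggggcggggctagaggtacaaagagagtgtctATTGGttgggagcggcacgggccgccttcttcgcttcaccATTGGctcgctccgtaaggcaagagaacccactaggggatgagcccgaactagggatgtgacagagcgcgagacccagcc

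TM7SF2: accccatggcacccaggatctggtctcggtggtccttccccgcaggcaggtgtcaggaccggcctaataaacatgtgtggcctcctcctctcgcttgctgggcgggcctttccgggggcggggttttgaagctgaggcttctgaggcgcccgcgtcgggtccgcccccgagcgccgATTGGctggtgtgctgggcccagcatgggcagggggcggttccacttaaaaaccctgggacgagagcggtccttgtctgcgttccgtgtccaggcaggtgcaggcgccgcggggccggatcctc

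SC5D: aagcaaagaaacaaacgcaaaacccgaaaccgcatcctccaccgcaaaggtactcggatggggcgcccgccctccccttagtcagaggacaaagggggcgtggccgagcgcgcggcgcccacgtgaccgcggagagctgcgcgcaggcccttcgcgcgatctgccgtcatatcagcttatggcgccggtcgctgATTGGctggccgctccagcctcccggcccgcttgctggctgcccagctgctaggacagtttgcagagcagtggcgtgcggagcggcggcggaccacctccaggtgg

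The EBP window (chrX:48521558-48521857) held 3 NF-Y boxes, and the TM7SF2 window (chr11:65111622-65111921) and the SC5D window, 1 of 2 for this gene (chr11:121292521-121292820) held 1 each. NF-Y is a general activator that often works beside SREBPs, and the box occurred in promoters of genes that fell and of genes that rose. RefSeq promoter windows were found for 27 of the 31 genes, 37 windows in all, and none for ACAT2, FDFT1, SQLE and FASN. CCAAT occurred in 67.6% of the 37 windows (75.0% of 20 sterol enzyme windows and 58.3% of 12 fatty acid enzyme windows) against 34.6% of 35116 windows in the table. The Sp1 box GGGCGG occurred in 89.2% against 45.0%, also on either strand. The consensus oestrogen response element occurred in none of the 37 windows and in 0.0570% of all windows, and the E2F site, TTTGGCGC or TTTCCCGC, in 5.41% (MVK and ACACA) against 2.27%. A match is a description of letters in these windows, and binding was not measured. The windows in the table cover 27305 genes, whether or not they were expressed here, and shares among expressed genes alone were not taken.

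Upstream of lanosterol, SQLE, the squalene epoxidase and a rate-controlling step of the route, rose with abemaciclib and did not pass the threshold with fulvestrant. It gave 77.8, 70.7 and 81.2 CPM with DMSO, 128, 129.8 and 123 with abemaciclib, 69.4, 68.3 and 73.8 with fulvestrant, and 90.0, 87.0 and 88.0 with the combination. The abemaciclib libraries stood above all others, the combination libraries came next, and fulvestrant overlapped DMSO. The rise with abemaciclib was 0.73 ± 0.09 (adjusted p = 9.49e-08). With fulvestrant the difference was -0.12 ± 0.09 (adjusted p = 0.291, interval -0.30 to 0.07). That between the combination and DMSO, 0.21 ± 0.09, was called at an adjusted p of 0.0451 and was lost in 14 of 20 alternative settings.

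Several other enzymes of the segment also rose with abemaciclib. MSMO1, the C4-methylsterol oxidase, averaged 72.7 ± 4.67 CPM with DMSO and 107 ± 2.64 with abemaciclib (SD, n = 3), a log2 difference of 0.56 ± 0.09 (adjusted p = 1.28e-05). LSS, which closes squalene epoxide into lanosterol, rose by 0.54 ± 0.20 (adjusted p = 0.0343), and NSDHL, the dehydrogenase that acts after MSMO1 on the C4 methyl groups, by 0.30 ± 0.12 (adjusted p = 0.0463). Both of these calls were lost in some alternative settings. FDFT1, squalene synthase, was called in comparisons of the combination (-0.25 ± 0.10 compared with DMSO, adjusted p = 0.0393, and -0.29 ± 0.10 compared with abemaciclib, adjusted p = 0.03), and HSD17B7, the 3-ketosterol reductase, fell with fulvestrant (-0.76 ± 0.28, adjusted p = 0.0259) from a low level of 6.39 ± 0.541 CPM. DHCR7, the final reductase to cholesterol, fell with the combination (-0.76 ± 0.18, adjusted p = 0.000669).

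**Figure D2:**
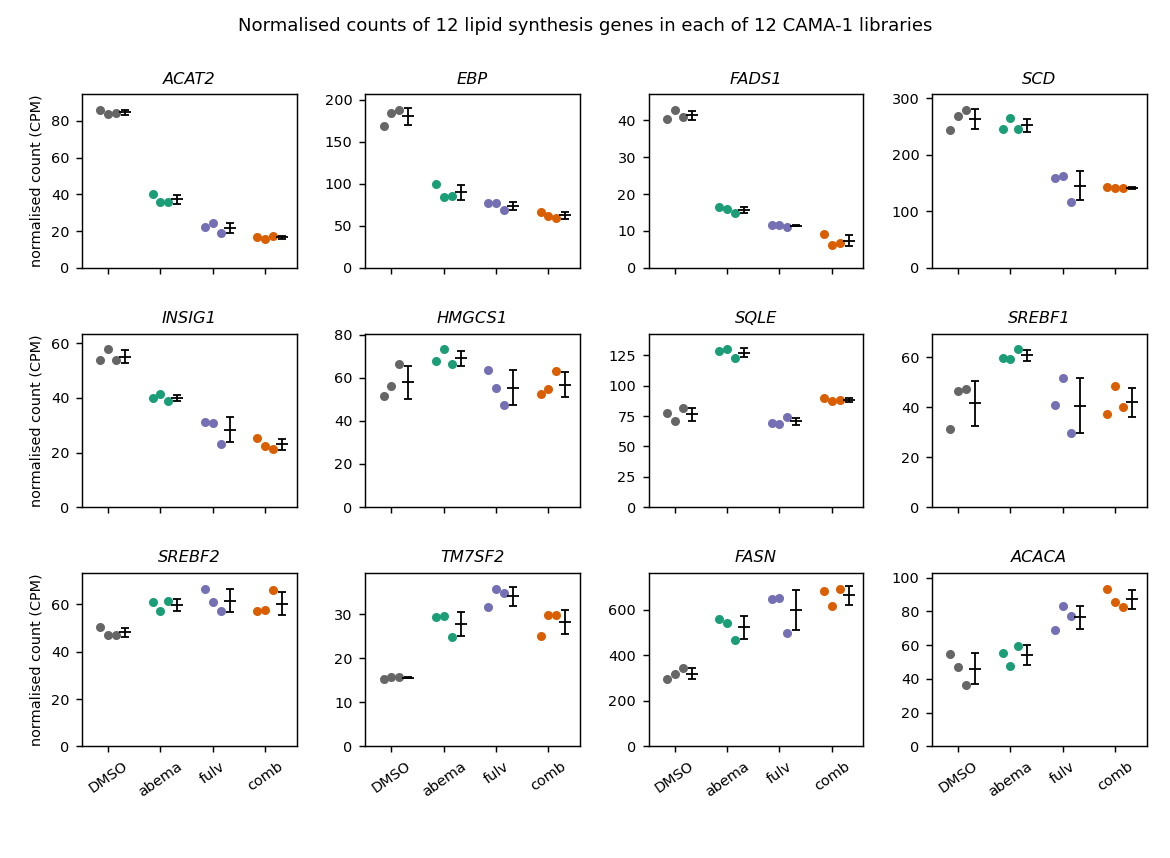
Normalised counts (CPM, vertical axes from 0) of 12 genes in each of the 12 libraries. Coloured points are libraries in replicate order within DMSO, abemaciclib (abema), fulvestrant (fulv) and combination (comb), and black bars give the mean ± SD of 3. ACAT2, EBP and FADS1 step down across the groups, SQLE peaks with abemaciclib at 123 to 129.8 CPM, and the means of FASN and ACACA are highest with the combination.

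Among the regulators, INSIG1, which retains SCAP and SREBP in the endoplasmic reticulum and is itself an SREBP target, fell in all 3 treatments. It gave 54.0, 57.8 and 53.7 CPM with DMSO, 40.0, 41.3 and 38.9 with abemaciclib, 31.1, 30.7 and 23.0 with fulvestrant, and 25.3, 22.3 and 21.4 with the combination. Treated and DMSO libraries did not overlap. The log2 fold change was -0.46 ± 0.12 with abemaciclib (adjusted p = 0.00254), -0.97 ± 0.12 with fulvestrant (adjusted p = 2.35e-07) and -1.27 ± 0.13 with the combination (adjusted p = 1.74e-09).

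SREBF2, the gene of SREBP-2, rose modestly under every treatment. Its values were 50.2, 47.1 and 46.9 CPM with DMSO, 60.8, 57.0 and 61.4 with abemaciclib, 66.5, 60.9 and 57.2 with fulvestrant, and 57.3, 57.5 and 65.8 with the combination. All 9 treated libraries were above the DMSO libraries, with log2 differences of 0.32 ± 0.10, 0.36 ± 0.10 and 0.33 ± 0.10 and adjusted p of 0.0154, 0.00515 and 0.00786. SREBF1 instead rose with abemaciclib alone among the comparisons with DMSO. It gave 31.2, 46.4 and 47.3 CPM with DMSO, 59.8, 59.4 and 63.2 with abemaciclib, 40.8, 51.6 and 29.6 with fulvestrant, and 37.3, 48.6 and 40.0 with the combination. The abemaciclib libraries were above all others, while the DMSO and fulvestrant libraries were widely spread. The rise of SREBF1 was 0.53 ± 0.17 (adjusted p = 0.0203), and the difference with fulvestrant was -0.06 ± 0.18 (adjusted p = 0.787, interval -0.44 to 0.31). SCAP, the escort of both SREBPs, rose with abemaciclib (0.31 ± 0.11, adjusted p = 0.0218) and with the combination (0.39 ± 0.11, adjusted p = 0.00339).

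An SREBP site, written TCANNCCAC and searched on both strands, occurred in 3 of the 37 promoter windows (8.11%, against 3.82% of all windows). They are shown with their flanking bases because SREBPs are known to bind such letters, 5′ to 3′ on the strand of the gene, with the site in capitals.

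INSIG1: cggggcaagcTCAGGCCACgcccctgggc

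SREBF2: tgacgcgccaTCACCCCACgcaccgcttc

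ACLY: aagcgaTCAGGCCACaacccccagcaccg

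These sites lie at chr7:155297760-155297788, 108 bases before the INSIG1 start, at chr22:41832962-41832990, 133 bases before the SREBF2 start, and at chr17:41919244-41919272 on the minus strand, 244 bases before 1 of the ACLY starts in RefSeq (GRCh38.p14). That ACLY start lies inside the gene model, which spans chr17:41866917-41930542, and the site was in 1 of the 2 ACLY windows. The 3 genes did not move together, since INSIG1 fell under every treatment, SREBF2 rose under every treatment, and ACLY fell with fulvestrant and the combination.

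In the fatty acid branch all 7 tested enzymes were called with fulvestrant, 3 higher and 4 lower. With abemaciclib 1 was higher and 2 were lower, and with the combination 2 were higher and 4 lower. The shares called were 42.9% with abemaciclib, close to the 41.2% of all tested genes, 100% with fulvestrant against 51.0%, and 85.7% with the combination against 55.2%. FASN, fatty acid synthase, gave 296, 315 and 344 CPM with DMSO, 556, 542 and 466 with abemaciclib, 645, 649.6 and 499 with fulvestrant, and 682, 615 and 691 with the combination. All treated libraries exceeded all DMSO libraries. The differences were 0.71 ± 0.10 (adjusted p = 1.64e-06), 0.91 ± 0.10 (adjusted p = 1.88e-08) and 1.06 ± 0.10 (adjusted p = 1.08e-09).

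ACACA, the acetyl-CoA carboxylase that supplies FASN with malonyl-CoA, rose with fulvestrant and with the combination. Its values were 54.6, 47.1 and 36.6 CPM with DMSO, 55.2, 47.9 and 59.6 with abemaciclib, 69.2, 82.9 and 77.5 with fulvestrant, and 93.4, 85.6 and 82.5 with the combination. The fulvestrant and combination libraries lay above both of the other groups, and abemaciclib overlapped DMSO. The differences were 0.74 ± 0.12 with fulvestrant (adjusted p = 1.2e-05), 0.93 ± 0.12 with the combination (adjusted p = 2.45e-07) and 0.25 ± 0.12 with abemaciclib (adjusted p = 0.118, interval -0.01 to 0.50). ACLY, the citrate lyase that supplies cytosolic acetyl-CoA to both branches, fell slightly with fulvestrant (-0.28 ± 0.08, adjusted p = 0.00311) and with the combination (-0.39 ± 0.08, adjusted p = 8.04e-05). ACSS2, which makes acetyl-CoA from acetate, was called higher with fulvestrant at an adjusted p of 0.0494, a call lost in 15 of 20 alternative settings.

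All 3 tested fatty acid desaturases fell with fulvestrant and with the combination. SCD, the stearoyl-CoA desaturase that makes monounsaturated fatty acids, gave 245, 269 and 279 CPM with DMSO, 245, 266 and 245 with abemaciclib, 159, 162 and 116 with fulvestrant, and 144, 141 and 141 with the combination. The groups with fulvestrant lay wholly below those without it. The difference was -0.07 ± 0.09 with abemaciclib (adjusted p = 0.592, interval -0.26 to 0.13), -0.86 ± 0.10 with fulvestrant (adjusted p = 2.97e-08) and -0.90 ± 0.10 with the combination (adjusted p = 1.08e-08).

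FADS1 and FADS2 are neighbouring genes on chromosome 11 for the delta-5 and delta-6 desaturases of polyunsaturated fatty acids. FADS1 gave 40.4, 42.8 and 40.9 CPM with DMSO, 16.4, 15.9 and 14.9 with abemaciclib, 11.6, 11.6 and 11.2 with fulvestrant, and 9.14, 6.20 and 6.80 with the combination. The 4 groups were separate from each other in every library. The log2 fold changes of FADS1 were -1.39 ± 0.14, -1.85 ± 0.15 and -2.50 ± 0.16, with adjusted p of 7.07e-09, 5.04e-11 and 2.03e-13. FADS2 fell less, from 75.0 ± 8.04 CPM with DMSO to 57.9 ± 10.5, 41.5 ± 4.40 and 36.9 ± 5.58 (SD, n = 3), and its falls had adjusted p of 0.0168, 4.63e-06 and 2.11e-07. The difference in size between the falls of FADS1 and FADS2 was not tested. No exon of another gene covers the last 500 bases of the canonical FADS1 or FADS2 transcript in GENCODE v44.

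The sterol and fatty acid branches were compared by counts and medians, with no test between them. With abemaciclib 9 of 17 sterol enzymes and 3 of 7 fatty acid enzymes were called, and the medians were 0.18 and 0.13. With fulvestrant the counts were 8 of 17 and 7 of 7, and the medians -0.07 and -0.28. With the combination they were 13 of 17 and 6 of 7, and the medians -0.03 and -0.39. In that order of treatments the sterol shares called were 52.9%, 47.1% and 76.5%. The shares of all tested genes were 41.2%, 51.0% and 55.2%, so the sterol share with fulvestrant was close to that background. The fatty acid shares are given above. Leaving out 1 library at a time, the sterol median ranged from 0.11 to 0.21 with abemaciclib, from -0.10 to -0.06 with fulvestrant and from -0.12 to 0.03 with the combination, where it turned above 0 without DMSO replicate 3, combination replicate 1 or combination replicate 2. The fatty acid median ranged from 0.059 (without abemaciclib replicate 1) to 0.13 with abemaciclib, from -0.34 to -0.22 with fulvestrant and from -0.41 to -0.38 with the combination. The mean over the genes gave another picture where a few genes fell far. With abemaciclib the mean log2 level of the fatty acid enzymes was -0.08 ± 0.02 relative to DMSO (SD, n = 3), although their median change was above 0. That of the sterol enzymes was 0.09 ± 0.03. With fulvestrant the branch means lay closer than the medians, at -0.18 ± 0.01 (sterol) and -0.25 ± 0.07 (fatty acid). With the combination they were -0.22 ± 0.03 and -0.37 ± 0.09. The mean level of the first sterol segment was -0.15 ± 0.04 with abemaciclib, -0.49 ± 0.04 with fulvestrant and -0.50 ± 0.04 with the combination, and that of the squalene segment was 0.26 ± 0.05, 0.03 ± 0.03 and -0.03 ± 0.05. The sign of mean and median also differed for the first segment with abemaciclib, for the squalene segment with the combination, and for the regulators with fulvestrant and with the combination (means of -0.13 in both).

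**Figure D3:**
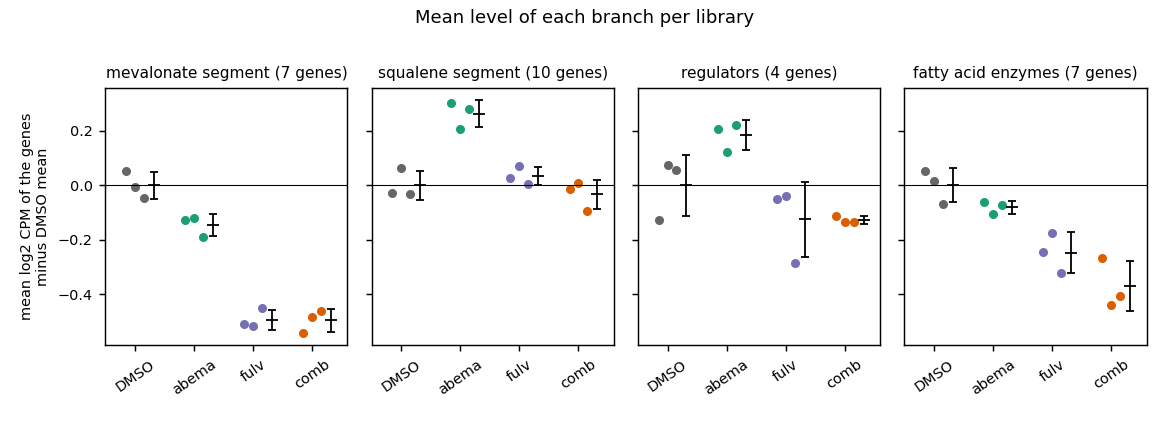
Mean log2 CPM of the measured genes in each set, minus the DMSO mean (vertical axis), per library, with the mean ± SD of 3 libraries in black. The first (mevalonate) segment averages -0.49 with fulvestrant and -0.50 with the combination, while the squalene segment is above DMSO with abemaciclib, at 0.26, and near it with the combination.

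Between the single drugs, 15 of the 28 genes were higher and 1 was lower with abemaciclib than with fulvestrant, against 29.0% of all genes called in either direction, 15.5% higher and 13.4% lower. The gene that was lower was ACACA (-0.50 ± 0.12, adjusted p = 0.00237). SQLE differed by 0.85 ± 0.09 (adjusted p = 1.92e-08), SCD by 0.79 ± 0.10 (adjusted p = 4.32e-07) and ACAT2 by 0.79 ± 0.13 (adjusted p = 1.86e-05). The count of 16 was 9 without abemaciclib replicate 1 and 10 without abemaciclib replicate 3 or without fulvestrant replicate 1.

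Adding fulvestrant to abemaciclib lowered more lipid genes than it raised. The combination differed from abemaciclib in 18 of 28 genes, 3 higher and 15 lower, against 33.5% of all genes in either direction, 15.9% higher and 17.7% lower. The 3 higher genes were ACACA (0.68 ± 0.12, adjusted p = 4.59e-05), FASN (0.34 ± 0.09, adjusted p = 0.00598) and PMVK (0.30 ± 0.10, adjusted p = 0.0179). SQLE was lower by a log2 difference of -0.52 ± 0.08 (adjusted p = 1.71e-05), DHCR7 by -0.95 ± 0.17 (adjusted p = 8.26e-05) and INSIG1 by -0.81 ± 0.13 (adjusted p = 1.54e-05). TM7SF2, with 0.02 ± 0.13, did not pass the threshold (adjusted p = 0.939).

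Adding abemaciclib to fulvestrant moved none of the 28 genes past the threshold in edgeR, or in DESeq2, against 1.92% of all genes (0.297% higher and 1.63% lower), while 10 of the 28 had an unadjusted p under 0.05. The nearest to the threshold was SQLE (0.32 ± 0.09, adjusted p = 0.0549, interval 0.14 to 0.50), with all 3 combination libraries above all 3 fulvestrant libraries. FADS1 was next (-0.64 ± 0.19, adjusted p = 0.0865, interval -1.03 to -0.26). For FASN the interval was -0.04 to 0.34 and for SCD -0.24 to 0.17. Without fulvestrant replicate 3, the library least like its own group, SQLE and FDFT1 were called (0.36 and -0.37, adjusted p = 0.0242 and 0.045). Without combination replicate 1 FADS1 was called (-0.81, adjusted p = 0.0393). In the same comparison the proliferation markers MKI67 and CCNA2 fell, and their summed level was between 1.94 and 2.65 CPM with the combination and between 46.8 and 53.1 CPM with fulvestrant. These markers also fell with each single drug against DMSO. The part of proliferation and of oestrogen receptor activity in the lipid gene values was not tested in this or any other comparison.

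The change made by abemaciclib therefore differed with and without fulvestrant for some of the genes, and this difference, the interaction, was tested directly. It was called for 8 of 28 genes, 3 above and 5 below 0, against 21.1% of all genes (9.49% above and 11.6% below). For TM7SF2, MSMO1 and SC5D the rise with abemaciclib against DMSO (0.84, 0.56 and 0.67) stood beside differences of -0.27, -0.11 and -0.07 between the combination and fulvestrant. For FASN and SQLE rises of 0.71 and 0.73 stood beside 0.15 and 0.32. For ACAT2, EBP and FADS1 falls of -1.17, -1.0 and -1.39 stood beside -0.38, -0.25 and -0.64. These 8 genes thus moved less with abemaciclib when fulvestrant was present. Over all tested genes 41.2% were called with abemaciclib against DMSO and 1.92% with the combination against fulvestrant. Fewer calls in the presence of fulvestrant were therefore not particular to the lipid genes. The share of all genes with a called interaction that moved less was not taken.

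**Figure D4:**
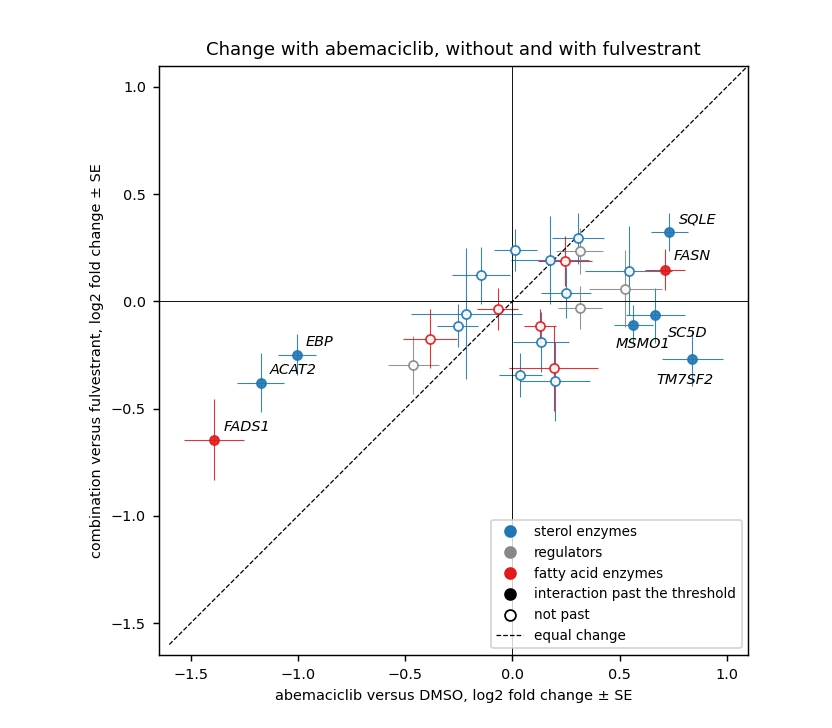
Log2 fold change (± SE) of the 28 genes for abemaciclib against DMSO (horizontal) and for the combination against fulvestrant (vertical). Filled, named points are the 8 genes with an interaction past the threshold, and the dashed line marks equal change. The named genes lie closer to 0 on the vertical than on the horizontal axis, from -1.39 to 0.84 horizontally and from -0.64 to 0.32 vertically.

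Further genes around the 2 branches were counted from lists that hold none of the 31. Of 10 tested genes of SREBP processing and sterol-sensing degradation, 6 rose and 1 fell with abemaciclib, 5 rose and 1 fell with fulvestrant, and 4 rose with the combination, which makes 70%, 60% and 40% called beside 41.2%, 51.0% and 55.2% of all tested genes. INSIG2, the relative of INSIG1, rose where INSIG1 fell, by 0.57 ± 0.18 with abemaciclib, 1.11 ± 0.17 with fulvestrant and 0.88 ± 0.17 with the combination (adjusted p = 0.0137, 1.3e-05 and 0.000174). RNF139, a sterol-sensing ubiquitin ligase, rose by 0.63 ± 0.10, 0.66 ± 0.10 and 0.68 ± 0.10. MBTPS2, the site-2 protease that releases SREBP, also rose in all 3, and ERLIN1 fell with each single drug.

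Of 14 tested genes of the LXR response, sterol transport and esterification, 3 rose and 1 fell with each single drug, and 4 rose and 1 fell with the combination. The shares called, 28.6%, 28.6% and 35.7%, were below those of all tested genes. ABCG1, a sterol exporter that LXR induces and that was singled out after its values were seen, fell with abemaciclib (-0.56 ± 0.11, adjusted p = 0.000195). LPCAT3, an LXR target that puts polyunsaturated chains into phospholipids, rose by 0.79 ± 0.16, 1.24 ± 0.16 and 1.35 ± 0.15 in that order, and MYLIP, an LXR-induced ubiquitin ligase, by 0.34 ± 0.10, 1.07 ± 0.09 and 0.90 ± 0.09. Of 11 isoprenoid genes outside the sterol route, 2 were called with abemaciclib, 3 with fulvestrant and 6 with the combination. These shares were 18.2%, 27.3% and 54.5%, beside 41.2%, 51.0% and 55.2% of all tested genes. COQ2, of ubiquinone synthesis, fell in each treatment, with a log2 difference of -1.41 ± 0.14 with fulvestrant (adjusted p = 1.59e-09).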

How the data were processed

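RNA of CAMA-1 cells after 5 days of treatment was sequenced by a 3′ method (QuantSeq 3′ FWD), so each read marks a transcript end and counts do not scale with gene length. The deposited values were raw counts per gene, made by the authors with STAR on hg38 and featureCounts 2.0.1 with GENCODE annotation. A strand setting and molecular identifiers are not given in the sources used here. The cultures were independent biological replicates per the study's legends.

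Of 60656 rows, 44 without a name (0 reads) were left out. The counts were filtered by group (edgeR filterByExpr, minimum count 10), which left 11803 genes, scaled by TMM and fitted with the robust edgeR 4.0.16 quasi-likelihood model (R 4.3.3) as 4 group means over 12 libraries. Adjusted p is Benjamini-Hochberg over all genes tested, with a threshold of 0.05. All 3 treatments share the DMSO libraries. Log2 branch levels used a prior count of 2. The SE of a difference was derived, as the absolute log2 fold change divided by the square root of the quasi-likelihood F. Intervals of differences (95%) were built from that SE, per gene, and are not adjusted. Scripts were tested on simulated data, with their pass limits set after a first run. Alternatives were DESeq2 1.42.0, other scaling, filters and sample choices, and leaving out each library.

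The 31 members and all gene lists were chosen with earlier results of these data known. The CPM of every library is given for 8 set members and for those with the 3 largest called changes in the comparisons with DMSO and the interaction. From each of the other lists at most 4 genes were named. They were taken from the largest called changes with fulvestrant, except ABCG1, and not every such gene was named. Promoters came from RefSeq tables, and gene models from GENCODE v44 on GRCh38. The paper names an earlier GENCODE release for the counts, and whether the overlaps between genes are the same there was not checked.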

Additional observations from a re-analysis of the deposited data

Results flagged for a closer look

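For 8 genes the change with abemaciclib differed according to whether fulvestrant was present, by the interaction term of the edgeR quasi-likelihood fit ((combination minus fulvestrant) minus (abemaciclib minus DMSO), log2 scale, 3 libraries per group). Among the sterol enzymes the term was 0.79 ± 0.18 for ACAT2 (adjusted p = 0.00172), 0.76 ± 0.13 for EBP (adjusted p = 0.000128), -1.10 ± 0.19 for TM7SF2 (adjusted p = 0.000128), -0.73 ± 0.19 for SC5D (adjusted p = 0.00601), -0.67 ± 0.13 for MSMO1 (adjusted p = 0.00035) and -0.41 ± 0.12 for SQLE (adjusted p = 0.0179). Among the fatty acid enzymes it was -0.56 ± 0.13 for FASN (adjusted p = 0.00357) and 0.75 ± 0.24 for FADS1 (adjusted p = 0.0253). The SQLE call was lost without DMSO replicate 2 (highest adjusted p = 0.0632). The FADS1 call was lost under DESeq2, with no filter on low counts, and without DMSO replicate 2, abemaciclib replicate 3 or combination replicate 1. TCP1, which overlaps the end of ACAT2 on the opposite strand, had a term of 0.32 ± 0.11 (adjusted p = 0.0339), and its part in the ACAT2 value was not tested.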

How the results depend on the processing

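Of 97 calls of single lipid genes over the comparisons, 64 stayed past the threshold under every alternative run, 33 were lost under at least 1, and none changed sign. Counts of called genes that moved by more than 1.5 times were as follows. With upper-quartile scaling 1 lipid gene, the sterol enzyme SQLE, was called between the combination and fulvestrant, where the reported test called 0. In a fit of the 2 groups compared, 5 sterol enzymes in place of 9 differed between abemaciclib and fulvestrant. The interaction called 1 fatty acid enzyme in place of 2 under DESeq2 and with no filter on low counts. Leaving out 1 library at a time, the called members ranged from 10 (without abemaciclib replicate 3) to 17 for abemaciclib against DMSO, from 0 to 2 for the combination against fulvestrant (sterol enzymes 0 to 2, fatty acid enzymes 0 to 1), and from 9 to 16 for abemaciclib against fulvestrant (sterol enzymes 3 to 9, lowest without abemaciclib replicate 1, and fatty acid enzymes 3 to 5). The interaction called 1 to 3 fatty acid enzymes.

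Of the 99 differences of lipid genes that had not passed the threshold, 28 changed sign without at least 1 library, among them 4 of the 13 followed here in detail: the log2 difference ranged from -0.18 to 0.05 for HMGCS1 and from -0.27 to 0.12 for SREBF1 with fulvestrant, from -0.061 to 0.094 for TM7SF2 between the combination and abemaciclib, and from -0.18 to 0.05 for SCD between the combination and fulvestrant. Among calls against DMSO, those lost most often were ACSS2 with fulvestrant (15 of 20 alternatives, highest adjusted p = 0.247), SQLE and MSMO1 with the combination (14 and 13 of 20, highest 0.22 and 0.2) and NSDHL with abemaciclib (8 of 20). LSS, FDPS and FADS2 with abemaciclib were lost in 5, 6 and 3, HSD17B7 and MVD with fulvestrant in 6 and 4, and FDFT1 with the combination in 6. SCAP with abemaciclib was lost in 4, DESeq2 among them. Between the combination and abemaciclib, FDFT1 was lost in 5, DESeq2 among them, and PMVK in 3. SREBF1 with abemaciclib was lost without DMSO replicate 1 or abemaciclib replicate 3 (highest adjusted p = 0.0639), SREBF2 with abemaciclib without DMSO replicate 2 or abemaciclib replicate 3 (0.055), IDI1 and SREBF2 with the combination without combination replicate 3 (0.0716 and 0.0545), and FASN between the combination and abemaciclib without abemaciclib replicate 3 (0.0576). The replicate numbers did not pair the libraries (2 of 18 same-number correlations exceeded 0.1, range -0.21 to 0.12), and the number as a block ended 6 calls (ACSS2 with fulvestrant, NSDHL with abemaciclib, SQLE and MSMO1 with the combination, HMGCS1 and MSMO1 between the single drugs, adjusted p from 0.0522 to 0.0613) and added SC5D between the single drugs (-0.32, adjusted p = 0.046). It also took the uncalled SREBF1 difference between the combination and DMSO from -0.0052 to 0.00014. Depth limits HSD17B7, ACSS2 and LSS, which had 256, 676 and 709 reads in all.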

Other observations

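Genes around the fatty acid branch were counted from 3 further lists. Of 13 tested genes of glycerolipid synthesis and lipid droplets, 2 fell with abemaciclib, 3 rose and 2 fell with fulvestrant, and 6 rose and 3 fell with the combination, or 15.4%, 38.5% and 69.2% called beside 41.2%, 51.0% and 55.2% of all tested genes. PLIN2, the coat protein of lipid droplets, fell in every treatment, with log2 fold changes of -1.85 ± 0.16, -1.73 ± 0.16 and -1.96 ± 0.16 for abemaciclib, fulvestrant and the combination (adjusted p = 2.65e-10, 5.27e-10 and 3.27e-11). GPAT3, a glycerol-phosphate acyltransferase, fell in all 3 as well, by -2.11 ± 0.40 with fulvestrant (adjusted p = 7.3e-05). AGPAT2, which adds the next chain to make phosphatidic acid, rose with fulvestrant (1.13 ± 0.10, adjusted p = 1.27e-10) and with the combination (1.41 ± 0.10, adjusted p = 8.49e-13).

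Of 17 tested fatty acid oxidation genes, 5 rose and 4 fell with abemaciclib, and 7 rose with fulvestrant and with the combination, where 2 and 3 fell. The shares called were 52.9%, 52.9% and 58.8%, beside 41.2%, 51.0% and 55.2% of all tested genes. Those with fulvestrant and with the combination were thus close to the background. SLC25A20, the carnitine carrier of mitochondria, rose in all 3. Of 14 tested genes of other fatty acid synthesis, elongation and activation, 4 rose in each treatment, and 1, 2 and 5 fell. The shares called were 35.7%, 42.9% and 64.3%, beside the same 41.2%, 51.0% and 55.2%. ACSL3, an acyl-CoA synthetase, rose by 0.31 ± 0.07, 0.62 ± 0.07 and 0.80 ± 0.07, HACD3, a dehydratase of elongation, by 0.43 ± 0.07, 0.55 ± 0.07 and 0.74 ± 0.07, and THRSP, a cofactor of fatty acid synthesis, by 0.76 ± 0.16, 1.07 ± 0.16 and 0.76 ± 0.16.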
